A study of Phaffia rhodozyma with 6 samples.

Results

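The genes described here are those of DNA replication, the cell cycle and chromosome segregation in the yeast Phaffia rhodozyma, which makes the red carotenoid astaxanthin. They are the 97 of 6363 genes whose name in the authors' deposited table holds a term such as origin recognition, DNA polymerase, replication factor, cyclin, cell division, anaphase, kinetochore, spindle, cohesin, condensin or septin. Names with kinase, RAD or repair and the polymerases zeta and IV were left out, which removed 14 genes. The study set 3 fermenter cultures of the mutagenised strain BPAX-A1 beside 3 of the wild-type strain CBS6938 and sequenced their mRNA. Each culture grew in defined medium with sucrose, with pH held at 5.5, temperature at 20 °C and dissolved oxygen at 70%. Cells were taken late in exponential growth, when astaxanthin formed fastest, to learn which transcripts differ between the strains. The sources used here do not say how the mutant was mutagenised or whether it is 1 clone.

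For every gene the authors' deposited table has 1 expression value in condition q2 and 1 in condition q1. The value is in FPKM, a fragment count divided by transcript length and by the number of mapped fragments, and stands for a whole condition of replicate cultures. No source used here says which of q2 and q1 is the mutant, so a direction always compares q2 with q1 and is never assigned to a strain. No value per culture was available, so no spread between cultures can be given, and the read depth is unknown. Every FPKM value, log2 ratio, p-value and q-value given below for a single gene is taken from the authors' deposited table. A gene is called when the authors' q-value, their p-value adjusted over all 6272 tested genes, is below 0.05. The standard error given with a log2 ratio is implied by the authors' p-value and restates their test.

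A dividing yeast cell copies its genome once per cycle and parts the copies between mother and bud. The origin recognition complex marks the sites where copying starts, helicase factors open the DNA there, and polymerases with their clamp loaders copy both strands. Cyclins switch on the kinases that order these steps. Cohesin holds the sister chromatids together, condensin compacts them, kinetochores attach them to the spindle, and the anaphase-promoting complex (APC/C) triggers their separation. Septins form the ring at the bud neck where the cells divide. In many organisms transcripts of these genes peak at particular stages of the cycle, so in a culture that is not synchronised each level is an average over all stages.

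All 97 genes had enough signal for the authors' test, and 1 of them passed it, the large subunit of replication factor C, which was higher in q2. Over all tested genes the authors called 5.53%, made up of 3.65% with a higher and 1.88% with a lower value in q2. The role groups below are small, so 0 or 1 called genes in a group is close to what 5.53% would give. Before adjustment, 3 higher and 2 lower genes of the 97 had a p below 0.05, against 10.5% higher and 4.13% lower over all tested genes. Most members had close to the same value in both conditions: 71 of the 97 lay within 0.5 of 0 on the log2 scale, or 73.2%, against 52.9% of all tested genes. The middle 50% of their log2 ratios ran from -0.11 to 0.40, while that of all tested genes ran from -0.28 to 0.71. Past 1 on the log2 scale lay 10 members higher in q2 and 3 lower, against 18.1% and 5.13% of all tested genes. In 72 of the 97 (74.2%) the log2 ratio was smaller than its own implied standard error, against 56.2% of all tested genes, which restates the authors' p-values.

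**Figure D1:**
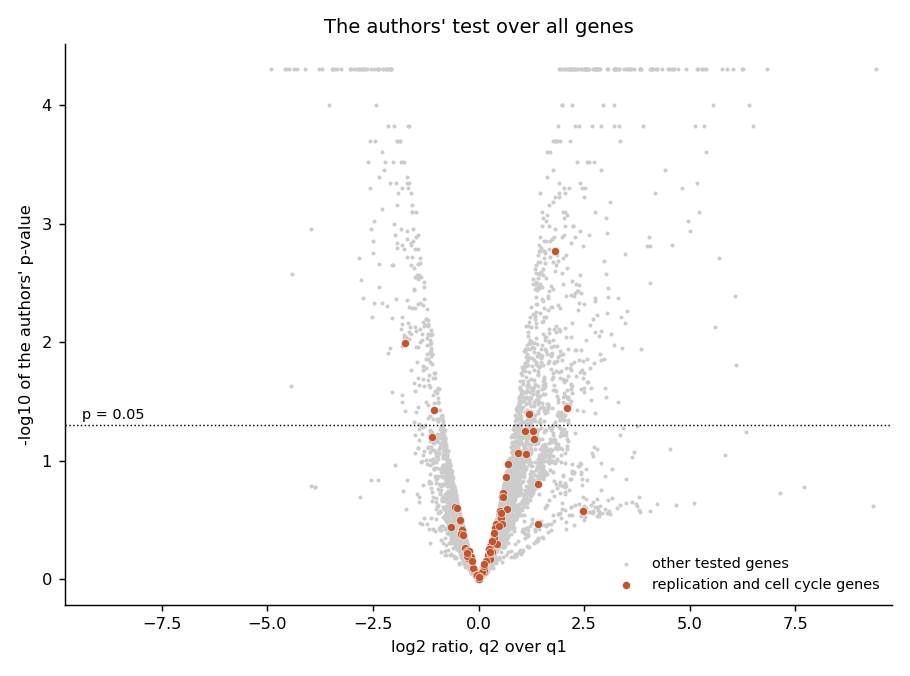
Each point is a tested gene, with the log2 ratio of q2 over q1 on the horizontal axis and -log10 of the authors' p-value on the vertical axis; orange points are the 97 replication and cell cycle genes. The row of grey points at the top is the floor of the authors' p-values, and 5 orange points lie above the dotted line.

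The median log2 ratio of the 97 genes was 0.11, and that of all tested genes was 0.12. Values were higher in q2 for 55 members (56.7%) and for 57.7% of all tested genes. After centring on the median log2 ratio of 0.11 over all 6106 genes above 1 FPKM, 48 members were higher and the members' median was -0.0013. The sum of FPKM over all genes was 2161506 in q2 and 1030219 in q1, and cytosolic ribosomal protein genes, 74 by name, held 56.1% of that sum in q2 and 36.3% in q1. The part of this difference in the members' values was not tested. The members together held 0.301% of the sum in q2 and 0.462% in q1. If each condition is scaled to the same sum, every log2 ratio drops by 1.07, and 10 of the 97 members (10.3%) and 17.0% of all tested genes are then higher in q2. The directions below are as deposited, and a positive log2 ratio below 1.07 turns negative under that scaling.

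**Figure D2:**
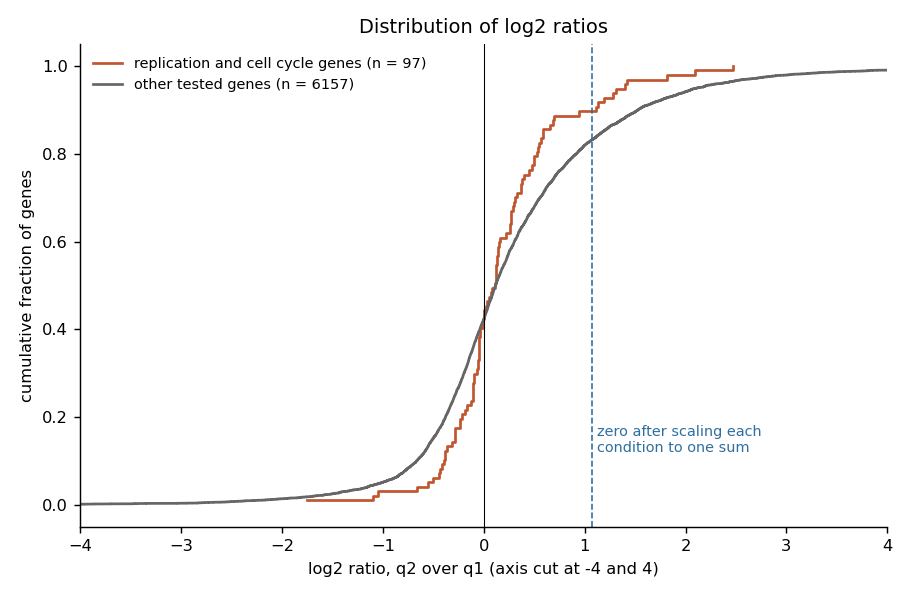
Cumulative fraction of genes against the log2 ratio of q2 over q1, for the 97 replication and cell cycle genes (orange) and 6157 other tested genes (grey); 18 genes at 0 in a condition are not drawn. The curves cross near the medians of 0.11 and 0.12, and the orange curve is the steeper one; the dashed line marks where 0 would lie if both conditions had the same sum.

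The members were expressed at moderate levels. Their median was 29.2 FPKM in q2 and 27.9 FPKM in q1, against 45.1 and 38.2 FPKM over all genes. Of the 97, 81 had a mean of the conditions between 10 and 100 FPKM, 11 were above and 5 below. Among all 4030 tested genes in that same band of levels the authors called 5.68%, and 1 of the 81 members there. The middle 50% of log2 ratios in the band ran from -0.11 to 0.33 for members and from -0.22 to 0.59 for all genes. The median implied standard error there was 0.47 for members and 0.48 for all genes. This band was set after the values were seen.

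**Figure D3:**
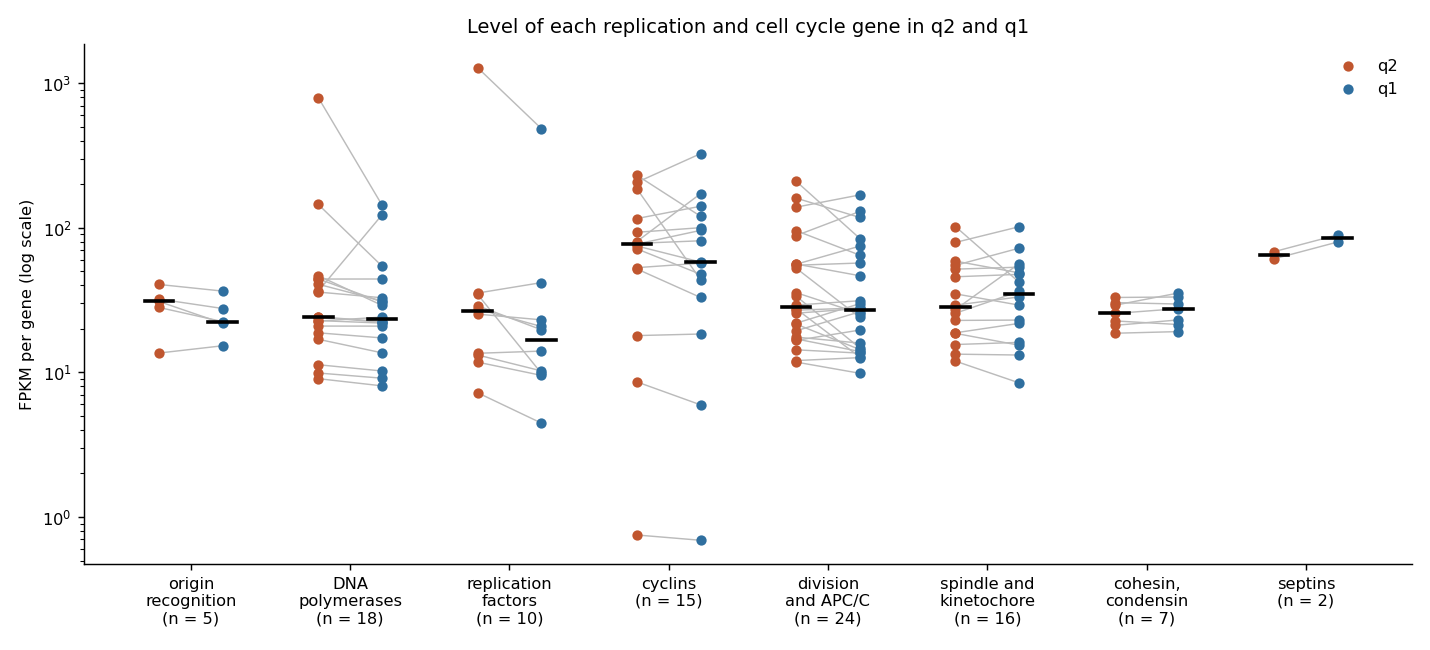
FPKM of each gene on a log scale, in q2 (orange, left) and q1 (blue, right), by role, with a grey line joining the values of a gene and a black bar at the median. The cyclins and both septins sit highest as groups, and the lowest point is a PHO80-like cyclin at 0.751 FPKM in q2 and 0.690 FPKM in q1.

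The 5 genes named as subunits of the origin recognition complex, which binds replication origins and loads the helicase there, had similar values in both conditions. Of these, 0 were called, against 5.53% of all tested genes. Subunit 2 (CDZ96794, scaffold 79, 365561 to 367321) had the highest log2 ratio, with 30.9 FPKM in q2 and 21.9 FPKM in q1 (log2 0.50, implied SE 0.49). Subunit 4 (CED84461, scaffold 78, 357019 to 360440) had 28.1 FPKM in q2 and 22.4 FPKM in q1. Subunit 3 (CDZ96810, scaffold 79, 408422 to 411140) had 32.2 FPKM in q2 and 27.7 FPKM in q1. The highest level of the complex was that of subunit 5 (CDZ97002, scaffold 79, 977252 to 979059), with 40.6 FPKM in q2 and 36.5 FPKM in q1. Subunit 1 (CED85291, scaffold 249, 1139163 to 1142614), the subunit related to the helicase loader Cdc6 in other eukaryotes, was the lowest in level and the only one with a lower value in q2, at 13.6 FPKM against 15.3 FPKM in q1 (log2 -0.17, implied SE 0.44). The order of the 5 levels was 5, 3, 2, 4 and 1 in q2 and 5, 3, 4, 2 and 1 in q1, with 2 and 4 changing places.

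Among 10 replication factors and regulators, the authors called 1 (10%), against 5.53% of all tested genes. It was the large subunit RFC1 of replication factor C (CED84456, scaffold 78, 343883 to 347639), the clamp loader that places the sliding clamp PCNA on DNA. RFC1 had 34.7 FPKM in q2 and 9.88 FPKM in q1, which is 3.51-fold higher in q2 (log2 1.81, implied SE 0.58, p 0.0017, q 0.0353). Of the 331 genes, out of 6363, that the authors selected in a further sheet of their table, RFC1 is the only member. That selection comes from the same data and is no independent support. The clamp itself, proliferating cell nuclear antigen (CDZ97698), had 206 FPKM in q2 and 225 FPKM in q1 (log2 -0.13, implied SE 0.60). CHL12/CTF18 (CDZ98631), the large subunit of an alternative clamp loader that acts in sister chromatid cohesion in S. cerevisiae, had 13.6 FPKM in q2 and 14.0 FPKM in q1 (log2 -0.05). A gene named only as a large subunit of a DNA replication factor (CED83681) had 25.3 FPKM in q2 and 23.1 FPKM in q1 (log2 0.13). The other subunits of replication factor C were not found under that name among the members.

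The highest level of all members was that of a SET/SPR-2 gene (CED85054, scaffold 249, 381223 to 382807), whose relatives in animals are histone chaperones and inhibitors of a protein phosphatase. It had 1281 FPKM in q2 and 486 FPKM in q1, but with an implied SE of 1.47 on a log2 ratio of 1.40 it was not called (q 0.744). Sld3 (CDZ96953), which brings Cdc45 to origins in S. cerevisiae, had 27.5 FPKM in q2 and 20.8 FPKM in q1 (log2 0.40, implied SE 0.42). The CDC45-like gene (CED84479), a part of the replicative helicase, had 16.6 FPKM in q2 and 19.6 FPKM in q1 (log2 -0.24, implied SE 0.42). The checkpoint mediator with an MRC1 domain (CDZ98052), a kind of protein that signals stalled forks, had 11.8 FPKM in q2 and 9.54 FPKM in q1 (log2 0.30). A gene for establishing sister chromatid cohesion during replication (CED82253) had 13.2 FPKM in q2 and 10.2 FPKM in q1 (log2 0.37). The mitochondrial RNA polymerase RPO41 (CDZ98547), which the rule took in because it makes primers for mitochondrial DNA replication, had the lowest log2 ratio of these 10 genes, with 35.4 FPKM in q2 and 41.8 FPKM in q1 (log2 -0.24). Of the 10 genes, 8 had higher values in q2 (80%), also after centring, against 57.7% and 50.5% of all tested genes. With each condition scaled to the same sum, 2 were higher (20%), against 17.0% of all tested genes. The median log2 ratio of the 10 genes was 0.38.

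Of the 18 genes matched by DNA polymerase or primase, 0 were called, against 5.53% of all tested genes. An unadjusted p below 0.05 was found in 1, against 14.6% of all tested genes. That gene, named epsilon dna polymerase (CED83236, scaffold 52, 1660429 to 1665437), had 36.5 FPKM in q2 and 123 FPKM in q1, 3.36-fold less in q2 (log2 -1.75, implied SE 0.68, p 0.0101, q 0.123). Polymerase epsilon copies the leading strand. The name of CED83236 does not say which subunit it is, and this was not tested. The genes named as polymerase epsilon subunits D and C, small accessory subunits, had the opposite sign. Subunit D (CDZ96960, scaffold 79, 859495 to 860819) had 796 FPKM in q2 and 144 FPKM in q1, the highest log2 ratio of all 97 genes at 2.47, with the largest implied SE, 2.21 (p 0.264). Subunit C (CDZ98184, scaffold 242, 209003 to 210458) had 145 FPKM in q2 and 54.4 FPKM in q1 (log2 1.42, p 0.157). The genes named epsilon thus had a wider spread than those of any complex described here, between -1.75 and 2.47. They were grouped by name only, and the difference between them was not tested. A gene named dna polymerase catalytic subunit a (CDZ96212), for which the name gives no Greek letter, had 16.9 FPKM in q2 and 13.7 FPKM in q1 (log2 0.31). It spans 8156 bases, against 5009 for CED83236. Which polymerase CDZ96212 belongs to was not tested.

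Of all 18 genes, 13 had a log2 ratio within 0.5 of 0. Besides the genes named epsilon, those outside were subunit B of polymerase alpha and polymerase sigma (CED83933), with 44.3 FPKM in q2 and 30.7 FPKM in q1 for sigma (log2 0.53, implied SE 0.49), whose S. cerevisiae relatives add tails to RNA. Polymerase alpha and primase start each new strand. The alpha catalytic subunit (CDZ97565) had 22.6 FPKM in q2 and 24.1 FPKM in q1, and subunit B (CED82061) had 46.7 FPKM in q2 and 29.1 FPKM in q1 (log2 0.68, implied SE 0.60). The large primase subunit (CED82915) had a log2 ratio of 0.38. For polymerase delta, which copies the lagging strand, log2 ratios were 0.12 for the gene named delta dna polymerase (CDZ96215), 0.06 for regulatory subunit 55 (CED83110) and 0.0016 for the Cdc27 subunit (CED84104). Among these 18 genes, those that share a name had nearly the same ratio, close to the median of 0.12 over all tested genes. In other roles they did not, as the genes named Cyclin alone ran from -1.10 to 0.58. Both genes named for the mitochondrial polymerase gamma had 0.13 (CED83342) and 0.11 (CED82159), both named REV1 had 0.17 (CDZ97273) and 0.14 (CDZ98168), and both named polymerase iota had 0.12 (CED82677 and CDZ97941). REV1 and polymerase iota copy past damaged bases. Whether reads were shared between genes of the same name is not known from the table. The polymerases zeta (CDZ96255, 17.3 FPKM in q2 and 3.80 FPKM in q1, q 0.0320) and IV (CDZ97716, 46.1 FPKM in q2 and 12.2 FPKM in q1, q 0.00705), which the rule leaves out, were both called higher in q2.

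**Figure D4:**
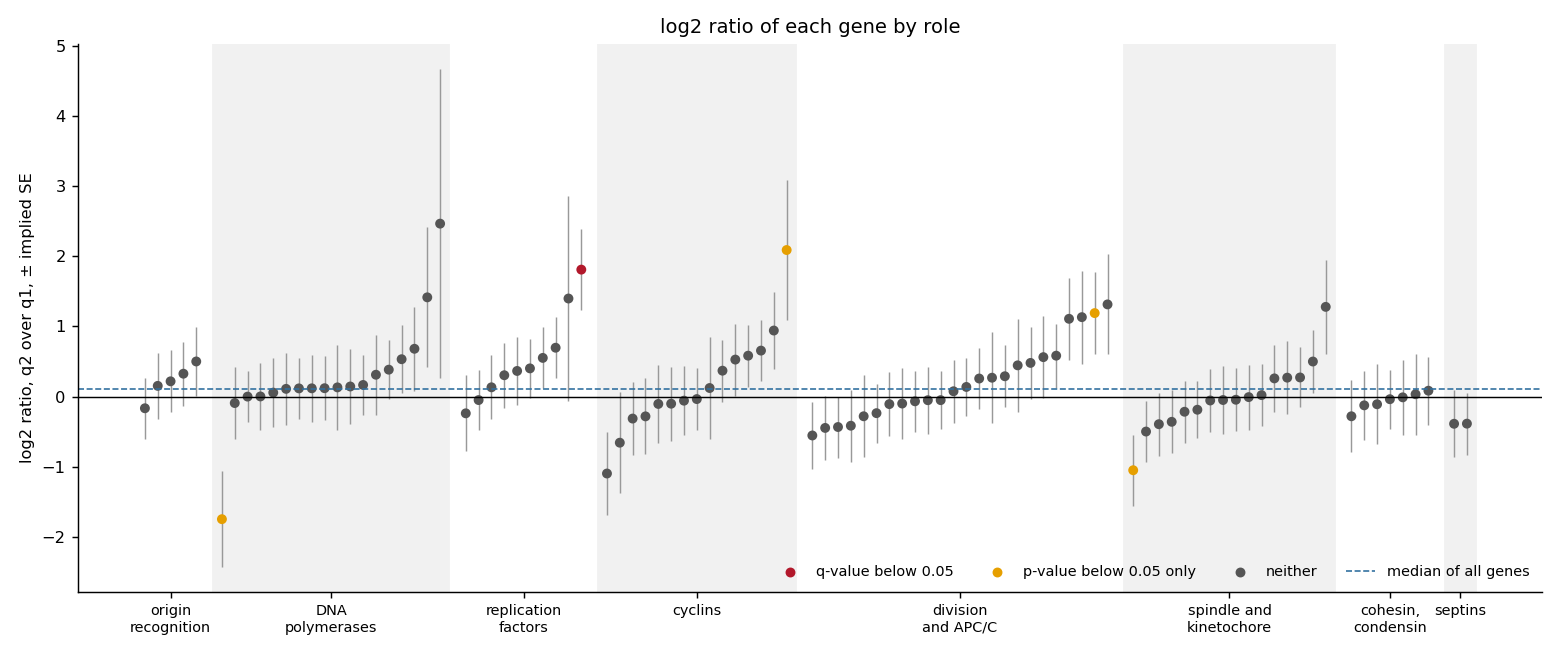
Log2 ratio of q2 over q1 for each of the 97 genes, ordered within each role, with bars of 1 implied standard error; the dashed line is the median of all genes at 0.11. RFC1 at 1.81 is the only gene with a q-value below 0.05, and the other 4 coloured points, at -1.75, 2.09, 1.19 and -1.05, have a p-value below 0.05 only.

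Of the 15 genes matched by cyclin, 0 were called, against 5.53% of all tested genes. Values in q2 were higher for 7 (46.7%, against 57.7% of all tested genes) and lower for 8. The median log2 ratio was -0.04. Cyclin L (CDZ97871, scaffold 162, 809278 to 810849), which in animals pairs with a kinase that acts in splicing, had 186 FPKM in q2 and 43.7 FPKM in q1 (log2 2.09, implied SE 0.996, p 0.0357, q 0.277). The gene named g2 mitotic-specific cyclin cdc13 (CED83547), the B-type cyclin that drives entry into mitosis in fission yeast, had 53.0 FPKM in q2 and 56.9 FPKM in q1 (log2 -0.10, implied SE 0.53). Both genes named for cyclin B were left out by the rule for kinase in their names, and neither was called. CDZ96385 had 26.7 FPKM in q2 and 28.8 FPKM in q1 (log2 -0.11). CDZ97155 had 9.16 FPKM in q2 and 14.7 FPKM in q1 (log2 -0.68, implied SE 0.45). The 8 genes named Cyclin alone, whose type the name does not give, ran from -1.10 to 0.58, with 6 of them lower in q2. The highest level among these was that of CDZ98213, with 206 FPKM in q2 and 325 FPKM in q1 (log2 -0.66, implied SE 0.72). The lowest log2 ratio was that of CED83870, with 80.3 FPKM in q2 and 172 FPKM in q1 (log2 -1.10, implied SE 0.59, p 0.0635). All 3 PHO80-like genes, whose S. cerevisiae relative serves phosphate signalling, had higher values in q2, with log2 ratios of 0.94 (CED85056), 0.53 (CDZ98407) and 0.12 (CDZ98421), 0 of them called. The GCIP gene (CDZ97174), named after an animal protein that binds cyclin D, had 77.2 FPKM in q2 and 95.9 FPKM in q1.

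The APC/C marks securin and mitotic cyclins for destruction so that sister chromatids can part. Of its 8 named genes, 5 had higher values in q2 (62.5%), also after centring, against 57.7% and 50.5% of all tested genes. With each condition scaled to the same sum, 3 were higher (37.5%), against 17.0% of all tested genes. Of the 8, 0 were called or had a p below 0.05, against 5.53% and 14.6% of all tested genes. Subunit 10 (CED84300), which helps to hold substrates, had 210 FPKM in q2 and 84.3 FPKM in q1 (log2 1.32, implied SE 0.71, p 0.0655). Subunit 4 (CED84140) had 52.6 FPKM in q2 and 24.0 FPKM in q1 (log2 1.13, p 0.0875), and subunit 1 (CED85374), the large scaffold, had 27.5 FPKM in q2 and 12.7 FPKM in q1 (log2 1.11, p 0.0566). The Cdc23 and Cdc16 subunits followed with log2 ratios of 0.58 (CED84122) and 0.48 (CED84346). The catalytic pair, subunit 2 (CED84265) and apc11 (CED83582), lay at -0.11 and -0.05, and the gene named for the activators Cdc20, Cdh1 and Ama1 (CDZ97112) at -0.45, with 21.9 FPKM in q2 and 29.9 FPKM in q1. The median of the 8 log2 ratios was 0.53.

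The other 16 genes of this role, matched by cell division, cell cycle or anaphase, included 1 with a p below 0.05, against 14.6% of all tested genes. It was a cell cycle-associated protein with no further description (CED83207, scaffold 52, 1584677 to 1590910), with 33.7 FPKM in q2 and 14.7 FPKM in q1 (log2 1.19, implied SE 0.58, p 0.0407, q 0.302). Cdc14 (CDZ98854), the phosphatase that drives mitotic exit in S. cerevisiae, had 11.8 FPKM in q2 and 9.86 FPKM in q1. Mob1-1 (CDZ98450), a partner of mitotic exit kinases, had 55.1 FPKM in q2 and 57.1 FPKM in q1. The highest level in q1 and in the mean of both conditions was that of the cell cycle control protein CED85237, with 139 FPKM in q2 and 169 FPKM in q1, and in q2 that of CDC37 (CED83763), with 160 FPKM in q2 and 118 FPKM in q1. The lowest log2 ratio was -0.56, in a microtubule-binding protein (CED82373) with 88.3 FPKM in q2 and 130 FPKM in q1. By name, some of these genes are known elsewhere for other work. CDC37 (CED83763, log2 0.45) is a co-chaperone for kinases, Pelota/DOM34 (CDZ96995, log2 0.27) rescues stalled ribosomes, and FtsJ (CDZ98134, log2 -0.43) is an RNA methyltransferase.

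Of 16 spindle and kinetochore genes, 0 were called, against 5.53% of all tested genes. A gene for anaphase spindle elongation (CDZ96248, log2 0.08) is not among them, because its match to anaphase put it with the division genes above. The mitotic-spindle organizing protein (CDZ97880, scaffold 162, 834050 to 834699) had 27.2 FPKM in q2 and 56.4 FPKM in q1 (log2 -1.05, implied SE 0.51, p 0.0373, q 0.287). At the other end, the checkpoint protein BUB3 (CDZ98354), which delays anaphase until chromosomes are attached, had 102 FPKM in q2 and 42.0 FPKM in q1 (log2 1.28, implied SE 0.67, p 0.0563). The 7 kinetochore genes ran from -0.50 for a fungi type kinetochore protein (CED83790), with 25.7 FPKM in q2 and 36.3 FPKM in q1, to 0.26 for zw10 (CED84917), with 34.9 FPKM in q2 and 29.2 FPKM in q1. The middle 50% of their log2 ratios lay between -0.14 and -0.03. The Ndc80 complex binds microtubules, and its members Spc24 (CED84578) and nuf2 (CED82315) had log2 ratios of -0.05 and -0.22. Dsn1/Mis13 (CDZ96607), at 22.9 FPKM in q2 and 23.0 FPKM in q1, and Mis14 (CED83261), at 45.8 FPKM in q2 and 47.6 FPKM in q1, belong to the complex that anchors Ndc80 to the centromere. Genes named for the centromere proteins Mis12 and HEC1 are not members. Mis12 (CED84220) had 39.1 FPKM in q2 and 28.7 FPKM in q1 (log2 0.45, implied SE 0.45). HEC1 (CDZ98645) had 14.3 FPKM in q2 and 15.0 FPKM in q1 (log2 -0.06). The 5 genes of the spindle pole body, the yeast centrosome, ran from -0.39 (CDZ96203) to 0.50 (CDZ96287), and Sfi1 (CDZ97651), a component of its duplication in S. cerevisiae, had 18.6 FPKM in q2 and 15.4 FPKM in q1. A further spindle assembly checkpoint gene (CED85614) had 79.2 FPKM in q2 and 102 FPKM in q1.

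The cohesin and condensin genes had the narrowest range of the role groups with more than 2 genes. Of the 7, 0 were called, against 5.53% of all tested genes. Their log2 ratios ran from -0.28 to 0.08 with a median implied standard error of 0.51. After centring, 0 of the 7 were higher, against 50.5% of all tested genes. For cohesin, psm1 (CDZ96284), an SMC subunit of the ring in fission yeast, had 33.0 FPKM in q2 and 33.2 FPKM in q1, and SMC3 (CED84349) had 21.1 FPKM in q2 and 23.1 FPKM in q1. The regulator PDS5 (CED83559) had 30.4 FPKM in q2 and 29.7 FPKM in q1, and STAG/IRR1/SCC3 (CED82744) had 25.6 FPKM in q2 and 27.6 FPKM in q1. The 4 genes thus lay between 21.1 and 33.0 FPKM in q2 and between 23.1 and 33.2 FPKM in q1. The ring-closing subunit RAD21/SCC1 (CDZ98317), left out by its name, had 54.8 FPKM in q2 and 66.0 FPKM in q1 (log2 -0.27). For condensin, subunit G (CDZ96730) had 18.6 FPKM in q2 and 19.1 FPKM in q1, subunit H (CDZ98725) had 29.1 FPKM in q2 and 35.4 FPKM in q1, and a nuclear condensin complex protein (CED83396) had 22.7 FPKM in q2 and 21.4 FPKM in q1.

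Both septins had the same log2 ratio of -0.39 and were not called. The septin ring protein (CED83848) had 68.3 FPKM in q2 and 89.4 FPKM in q1 (implied SE 0.44), and the probable cdc12-septin (CED83071) had 60.9 FPKM in q2 and 79.8 FPKM in q1 (implied SE 0.48). Each had 1.31-fold less in q2.

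**Figure D5:**
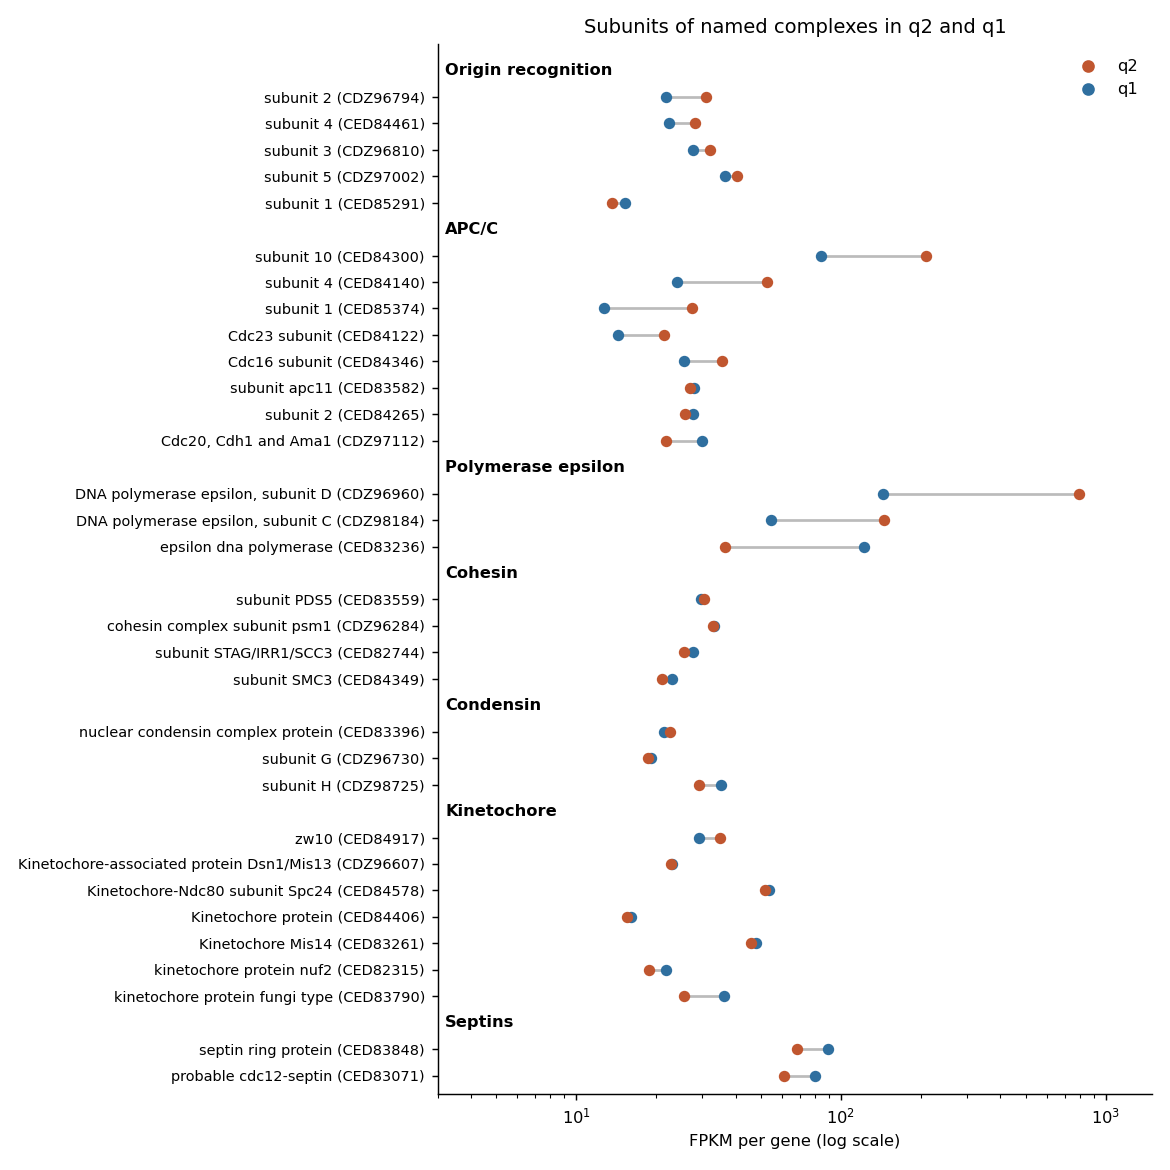
FPKM in q2 (orange) and q1 (blue) on a log scale for the subunits of named complexes, each row a gene and each grey line the distance between its values. The lines are short for cohesin, condensin and most kinetochore genes, longer for 3 APC/C subunits, and longest for the genes named polymerase epsilon, which run in opposite directions.

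Wide implied errors were found at high levels in most cases. In 7 members (7.22%) the implied standard error was above 0.7, against 18.5% of all tested genes. These were both small epsilon subunits, SET/SPR-2, cyclin L, the cyclin CDZ98213, APC/C subunit 10 and, at under 1 FPKM, the PHO80-like cyclin CDZ98421. The limit of 0.7 was chosen after the values were seen.

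Other genes matched by names from the same pathways were counted from a list outside the rule, with 34 genes, all of them tested. Of these, 0 were called by the authors' test, against 5.53% of all tested genes, and the unadjusted p was below 0.05 in 1, NSE1 (CED82635) of the SMC5/6 complex, with 69.5 FPKM in q2 and 26.1 FPKM in q1 (p 0.0288, q 0.244). The median log2 ratio of the 34 was 0.02. The list took in the clamp PCNA, ribonucleotide reductase, thymidylate synthase, 3 DNA ligases, 2 topoisomerases, MAD1 and shugoshin. It also took in 6 genes matched by SMC, 10 by terms for cell cycle kinases and 7 by centromere or CENP. Ribonucleotide reductase, which makes the DNA building blocks, had 179 FPKM in q2 and 175 FPKM in q1 for its small subunit (CDZ97586), and 96.7 FPKM in q2 and 120 FPKM in q1 for its alpha subunit (CED83798). The highest log2 ratios among the kinase matches were those of both genes named for cyclin T, the partner of the transcription kinase CDK9, with 71.1 FPKM in q2 and 28.5 FPKM in q1 for CDZ98235 and 91.5 FPKM in q2 and 45.7 FPKM in q1 for CED83663, neither of them called. The kinase matches also took in genes named for the transcription factor TFIIH. The SMC matches took in a jumonji/RBP2/SMCY gene (CED82056), and the centromere matches a gene named only for a CenpB-type DNA-binding domain (CED83930). The count and median of the 34 are thus those of name matches, not all of them shown to be pathway genes. Some of the 34, such as both cyclin T genes and the cdc2 kinase, are also among the 14 genes that the rule left out. The cdc2 kinase (CED84529), the main cell cycle kinase, had 32.1 FPKM in q2 and 38.2 FPKM in q1 (log2 -0.25, implied SE 0.44). Neither the rule nor the list matched 3 genes named mcm-domain-containing protein, the name of the replicative helicase family. They were looked up after the values were seen, and their log2 ratios were 0.08 (CDZ97334), -0.04 (CED82217) and -0.08 (CED85563), with levels of 33.7 to 55.6 FPKM in q2 and 34.7 to 52.6 FPKM in q1.

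The Gene Ontology column and the position of the members were not used to choose them, but the names that chose them are annotation too, so the identifiers are no independent check. The table gives 1 Gene Ontology identifier for 70 of the 97 genes. The term for regulation of cyclin-dependent kinase activity was given to 6 genes in the whole table, all of them members, and the term for the anaphase-promoting complex to 5 members of 6 genes. DNA binding was given to 8 members (8.25%, against 1.87% of all genes) and nucleus to 7 (7.22%, against 1.46%). The members, 97 of all 6363 genes, lay on 13 of 90 scaffolds. On these 13 their share ran from 0.758% of the 660 genes of scaffold 33 to 7.14% on scaffold 125, with 1 of 14 genes. Members were 8 of the 172 genes of scaffold 24 (4.65%) and 19 of the 830 genes of scaffold 69 (2.29%). Their median span was 2719 bases, against 1977 over all genes.

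Neighbouring members did not share a direction throughout. Within 10 genes of each other lay 29 members in 19 pairs, of which 2 pairs were adjacent. On scaffold 24, CDZ96212, the polymerase catalytic subunit a (152045 to 160200), is followed after 274 bases by a DNA replication helicase (CDZ96213, 160475 to 165676), with 7.24 FPKM in q2 and 4.46 FPKM in q1 (log2 0.70, implied SE 0.43). Polymerase delta (CDZ96215, 169643 to 174816) follows with 1 gene between, and CDZ96203 of the spindle pole body lies before them with 8 genes between. The log2 ratios of the 3 replication genes were 0.31, 0.70 and 0.12. On the same scaffold, psm1 lies between a cell cycle regulatory protein (CDZ96280, log2 -0.07) and the regulator of spindle pole body duplication CDZ96287 (log2 0.50). On scaffold 79, GCIP is followed after 404 bases by a DNA-binding cell division cycle control protein (CDZ97175), with log2 ratios of -0.31 and 0.29. Cyclin L and the mitotic-spindle organizing protein have 8 genes between them on scaffold 162, with log2 ratios of 2.09 and -1.05. RFC1 and origin recognition subunit 4 have 4 genes between them on scaffold 78, with log2 ratios of 1.81 and 0.33. SET/SPR-2 and the PHO80-like cyclin CED85056 have 1 gene between them on scaffold 249, with log2 ratios of 1.40 and 0.94. Further pairs were Sld3 with epsilon subunit D, Pelota with origin recognition subunit 5, APC/C subunit 10 with a cell cycle-associated protein (CED84306, log2 0.14), Cdc16 with SMC3, Cdc14 with a cyclin-like protein (CDZ98860, log2 0.66), the cdc12-septin with a histone H1-binding protein (CED83065, log2 0.56), and a cyclin (CDZ96503, log2 -0.06) with a phosphatase-associated protein (CDZ96509, log2 -0.10). The spans of the genes in the table do not overlap.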

How the data were processed

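RNA was measured by sequencing in 6 cultures. Per the labels' protocols, the ZymoBiomics DNA/RNA Miniprep Kit gave the RNA and an Illumina Stranded mRNA kit the libraries. Per the submitters' processing notes, FastQC, Trimmomatic, TopHat, Cufflinks and Cuffdiff were used. These sources give no versions, genome build or annotation, so loci are given on the authors' scaffolds without exon, intron or UTR detail. No sequence was available to print.

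Per the file headers, the deposited table holds FPKM per condition, a p-value, a q-value, a test statistic (a score, not used here) and the log2 ratio with q2 over q1. How libraries were normalized against each other is not stated and affects every log2 ratio. Log2 ratios recomputed from the deposited FPKM differed from the authors' by at most 1.38e-05, and Benjamini-Hochberg adjustment of the p-values by at most 5.26e-07 from the authors' q-values. A second sheet repeated the first with 0 differing cells. Starts are printed as the file's start plus 1, because in 254 of 458 genes under 600 bases the end less the start was divisible by 3.

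Values were analysed with Python 3.11.15, pandas 2.3.3 and SciPy 1.17.1. No test beyond that of the authors was possible on 1 value per condition. The implied standard error is the absolute log2 ratio divided by the normal quantile of the two-sided p-value, and the calculation was tested on simulated data. Genes were put into 8 role groups by words in their names. Named genes are members that were called or had p below 0.05, those with the highest and lowest log2 ratio and the highest level per role group, subunits of the origin recognition, replication factor, cohesin, condensin and septin complexes, and members within 10 genes of each other; other members named were chosen after their values were seen. Members and lists were chosen with earlier results of these data known. Alternatives were other thresholds, filters, pseudocounts and scalings, and the rule without its exclusions.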

Additional observations from a re-analysis of the deposited data

How the results depend on the processing

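The count of called members was 1 of 97 (1.03%) at a q-value below 0.05, against 5.53% of all tested genes. At an unadjusted p below 0.05 it was 5 (5.15%), against 14.6% of all tested genes. Without its exclusions the rule gave 3 of 111 (2.7%), which adds polymerases zeta and IV. The count was 0 at a q-value below 0.01. It stayed 1 with at least 1 FPKM in both conditions and with a mean of at least 10 FPKM. For the stricter q-value and these filters no share over all genes was counted. With a pseudocount of 1 FPKM the members' median log2 ratio was 0.08. It ranged from -0.03 to 0.11 under pseudocounts of 0.1 and 10 FPKM, both filters, the rule without exclusions and centring, and among these was below 0 only on centring. No error of this median is known. Scaling each condition to a sum of 1000000 moved all genes alike, apart from the pseudocount: the members' median became -0.90, and the number of members higher in q2 became 10 where it was 55 as deposited. Under that scaling the role medians were -0.81 for origin recognition, -0.85 for polymerases, -0.63 for replication factors, -1.02 for cyclins, -0.88 for division and APC/C, -1.05 for spindle and kinetochore, -1.03 for cohesin and condensin and -1.43 for septins. Of the 48 members picked by the naming rules given above, 2 changed sign on centring and 20 under the sum scaling, RFC1 in neither. Members named here beyond those rules are not in that count. The authors' test could not be rerun under another scaling. No paired analysis was possible because the table has no column per culture, and for the same reason no culture could be left out. Depth and counts behind each value are unknown.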
